A study of Homo sapiens with 6 samples.

Results

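Carbonic anhydrases are zinc enzymes that interconvert carbon dioxide and bicarbonate with release or uptake of a proton. Vertebrate family members differ mainly in where they work: CA2, CA3 and CA13 in the cytosol, CA5B in mitochondria, and CA9 and CA12 at the cell surface with the active site facing outwards. CA8 and CA11 are related proteins that lack histidines needed to hold the zinc and have no hydratase activity. In colorectal tissue CA2 is known as an enzyme of differentiated surface epithelium, and CA9 is known in tumours as a target of the hypoxia-inducible factors. The genes described here are CA2, CA3, CA5B, CA8, CA9, CA11, CA12 and CA13, 8 of the 56632 genes in the tables. They were chosen by their expression in these same libraries, because CA9 was higher and CA2 lower after Matrin3 knockdown. Differences in their mRNA level between the groups are therefore given as a description, with no p-value.

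HCT116, a colorectal cancer cell line of human origin, was used throughout. In the siMatrin3 group the cells were transfected with a pool of small interfering RNAs against MATR3, which encodes the nuclear RNA-binding protein Matrin3, and in the siCTRL group with a negative control siRNA, with 3 libraries in each group. Both groups received 2 rounds of transfection 72 hours apart, with 48 hours after the last according to the labels. The study's methods place RNA purification later than that, after the cells were reseeded, and the difference could not be settled. A single siRNA pool was set against a single control siRNA, so loss of Matrin3 and other effects of the pool cannot be told apart. The study describes the libraries as biological triplicates.

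Poly(A) RNA was sequenced to 43119176 to 54185650 expected counts in the siMatrin3 libraries and 40808173 to 52922637 in the siCTRL libraries. MATR3 itself had 95.2, 112 and 111 TPM in the siMatrin3 libraries and 186, 180 and 176 TPM in the siCTRL libraries, so it was lower in every library labelled siMatrin3 (log2 fold change -0.93, SE 0.065, edgeR adjusted p 7.7e-05). TPM is transcript abundance per length, with an equal total for each library. Of 6 epithelial markers 6 reached 1 TPM, with a summed level of 2691 to 2916 TPM in siMatrin3 and 2946 to 3097 TPM in siCTRL libraries, so the sums did not overlap. Among markers of other cells, COL1A1 was the fibroblast marker that reached 1 TPM of 6 listed and CD68 the leukocyte marker of 5, while 0 endothelial and 0 erythroid markers did. The fibroblast sums were 14.95 to 19.1 TPM in siMatrin3 and 13.7 to 16.2 TPM in siCTRL libraries, and the leukocyte sums 12.3 to 18.5 and 11.9 to 16.7 TPM. The part of these differing sums in the results was not tested.

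Of the 8 genes, 3 were matched in RefSeq's promoter table: CA9, CA12 and CA5B. The promoters of CA9 and CA12, the surface enzymes, are printed because these were the genes higher in siMatrin3 libraries by edgeR on counts. Their log2 fold changes were 1.08 and 0.43. Each runs from 250 bases before to 50 bases after the annotated start, on GRCh38.p14. The CA9 window is chr9:35673678-35673977 on the plus strand and the CA12 window chr15:63381797-63382096 on the minus strand. Capitals mark ACGTG, a form of the core of hypoxia response elements. It was searched on both strands, so that a match on the opposite strand appears as CACGT. The other form of the core, GCGTG, was neither searched nor marked.
CA9: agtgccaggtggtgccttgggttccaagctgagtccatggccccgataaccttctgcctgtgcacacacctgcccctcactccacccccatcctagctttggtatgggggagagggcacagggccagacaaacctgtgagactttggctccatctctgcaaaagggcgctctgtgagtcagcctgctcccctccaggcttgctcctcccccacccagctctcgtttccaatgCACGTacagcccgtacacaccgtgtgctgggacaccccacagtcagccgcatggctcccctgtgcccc
CA12: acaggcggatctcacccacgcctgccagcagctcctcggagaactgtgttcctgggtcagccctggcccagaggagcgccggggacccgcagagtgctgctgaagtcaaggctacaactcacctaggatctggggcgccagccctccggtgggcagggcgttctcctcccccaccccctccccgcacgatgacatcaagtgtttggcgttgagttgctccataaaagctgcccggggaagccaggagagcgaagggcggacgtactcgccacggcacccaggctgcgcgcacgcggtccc
The CA9 window held 1 match, which begins 18 bases before the start and is not part of CACGTG, the E-box that overlaps this core. The CA12 window held 0 matches to ACGTG, and that of CA5B, not printed, held 1 beginning 17 bases after the start. These counts do not cover GCGTG. Over all 35116 promoters of the table, 21.4% held ACGTG on either strand and 7.26% held CACGTG. A match describes the letters in the window and not binding.

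CA2 (ENSG00000104267), the fast cytosolic enzyme, had 13.5, 15.8 and 14.5 TPM in the siMatrin3 libraries, against 19.7, 21.7 and 22.7 TPM in the siCTRL libraries. Every siMatrin3 library lay below every siCTRL library. Its mean was 14.6 ± 1.15 TPM in siMatrin3 and 21.4 ± 1.49 TPM in siCTRL cells (SD, n = 3 each), and it fell by 29.7% in the count model (log2 fold change -0.51, SE 0.062). Fewer cells that express the gene and less RNA per cell cannot be told apart in these bulk libraries. CA2 rested on 805 to 897 expected counts per siMatrin3 library and 1067 to 1295 per siCTRL library, and no other annotated gene overlaps its exons.

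CA13 (ENSG00000185015), a second cytosolic enzyme, moved in the same direction by less. It had 6.66, 7.33 and 6.26 TPM in siMatrin3 libraries, against 7.87, 8.77 and 8.33 TPM in siCTRL libraries. The groups did not overlap, but the highest siMatrin3 library, replicate 2, stood close to the lowest siCTRL library, replicate 1. The means were 6.75 ± 0.541 TPM in siMatrin3 and 8.32 ± 0.450 TPM in siCTRL cells (SD, n = 3 each), a fall of 15.8% (log2 fold change -0.25, SE 0.060). This call did not hold without siMatrin3 replicate 1 (-0.25) or replicate 3 (-0.20), or without siCTRL replicate 2 (-0.22) or replicate 3 (-0.24). It also missed the threshold with an offset for transcript length (-0.28). Exons of CA13 overlap those of ENSG00000258256 on the opposite strand, and the part of shared reads in the CA13 value was not tested.

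CA3 (ENSG00000164879), a cytosolic enzyme of low activity best known from skeletal muscle, was near the limit of detection. It had 0.54, 0.31 and 0.17 TPM in siMatrin3 libraries, against 0.78, 0.53 and 0.73 TPM in siCTRL libraries. The TPM values overlapped by the narrow margin between siMatrin3 replicate 1 and siCTRL replicate 2. Behind them stood 10 to 30 expected counts per siMatrin3 library and 28 to 48.8 per siCTRL library. As counts scaled to library size (CPM), the values did not overlap, with 0.562, 0.395 and 0.220 in siMatrin3 and 0.928, 0.675 and 0.783 in siCTRL libraries. The log2 fold change was -1.003 (SE 0.323) and did not pass the threshold. With single libraries left out it ran from -1.38 to -0.72, and at -1.38, without siMatrin3 replicate 1, it passed. It passed in 3 of 16 alternatives, over which it ran from -1.38 to -0.33, and not in DESeq2 or with a length offset. Exons of CA3 overlap those of CA3-AS1 on the opposite strand, which was at 0.06 to 0.34 TPM over the 6 libraries. The part of shared reads in the CA3 value was not tested.

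In RefSeq's gene order CA13, CA1, CA3 and CA2 lie next to each other, so these 3 cytosolic genes share a locus. CA1, the red cell enzyme between them, reached no more than 0.17 TPM in any library and was not tested. The genes flanking this cluster had log2 fold changes close to 0: LRRCC1 -0.02 (SE 0.068), E2F5 0.08 (SE 0.065) and RBIS 0.04 (SE 0.048), of which 0 of 3 passed the threshold. On the far side the next gene with a name in the tables, PSKH2, was not tested.

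CA9 (ENSG00000107159), the surface enzyme that acidifies the space outside tumour cells, had 7.81, 8.05 and 10.3 TPM in siMatrin3 libraries, against 4.43, 3.03 and 5.66 TPM in siCTRL libraries. The lowest siMatrin3 library was above the highest siCTRL library. The highest library of each group was its replicate 3. The lowest, siCTRL replicate 2, was also the lowest siCTRL library for 26 of 30 hypoxia-induced genes listed below, for example NDRG1 with 153 TPM there and 257 and 282 TPM in siCTRL replicates 1 and 3. Without this library the log2 fold change of CA9 was 0.86, and the part of such a shared difference in the CA9 value was not tested. The means were 8.73 ± 1.39 TPM in siMatrin3 and 4.37 ± 1.32 TPM in siCTRL cells (SD, n = 3 each), so CA9 rose 2.11-fold in the count model (log2 fold change 1.08, SE 0.227). Without siMatrin3 replicate 3 the log2 fold change was 0.91 and no longer passed the threshold, and with limma it was 0.88 on log2(TPM + 1) and 1.014 on log2(TPM + 0.1), neither of which passed.

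In the annotation, exons of CA9 overlap exons of ARHGEF39 on the opposite strand. The library kit keeps strand, but the strand setting of the counting is not given in the sources used here. ARHGEF39, a guanine nucleotide exchange factor, had 8.77, 9.39 and 10.5 TPM in siMatrin3 libraries, against 7.51, 9.61 and 8.30 TPM in siCTRL libraries. These values overlapped between the groups (log2 fold change 0.19, SE 0.083, adjusted p 0.187). Its level was of the order of that of CA9, and the part of shared reads in the CA9 value was not tested.

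CA12 (ENSG00000074410), the other surface enzyme, had 3.08, 2.74 and 2.91 TPM in siMatrin3 libraries, against 2.30, 1.58 and 2.92 TPM in siCTRL libraries. By TPM the groups overlapped, because siCTRL replicate 3 lay within the siMatrin3 range. In CPM, counts scaled to TMM library sizes and not divided by length, the values were 10.4, 9.09 and 9.96 in siMatrin3 and 8.52, 5.79 and 7.50 in siCTRL libraries, and they did not overlap. The means were 2.91 ± 0.170 TPM in siMatrin3 and 2.27 ± 0.671 TPM in siCTRL cells (SD, n = 3 each). The lowest library was siCTRL replicate 2, as for CA9. The log2 fold change of 0.43 (SE 0.123) missed the threshold in edgeR. It passed in 5 of 17 alternatives, among them DESeq2 at the same size and the fit without siCTRL replicate 1 (0.56). With single libraries left out it ran from 0.29 to 0.56. With an offset for transcript length it was 0.39 and missed the threshold.

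CA5B (ENSG00000169239), the mitochondrial enzyme, had 1.80, 1.55 and 2.09 TPM in siMatrin3 libraries, against 1.69, 1.85 and 2.45 TPM in siCTRL libraries. The ranges overlapped, and the log2 fold change was -0.07 (SE 0.081), which did not pass the threshold here or in 17 alternatives. CA5B shares exons with CA5BP1, a transcribed pseudogene on the same strand, so reads could be split between them. CA5BP1 had the higher level, with 7.55, 6.42 and 8.90 TPM in siMatrin3 and 7.93, 8.43 and 7.69 TPM in siCTRL libraries, and a log2 fold change of -0.04 (SE 0.116). Neither gene passed the threshold.

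Of the related proteins without enzyme activity, CA8 (ENSG00000178538) binds the IP3 receptor ITPR1, a calcium channel of the endoplasmic reticulum. CA8 had 0.30, 0.50 and 0.49 TPM in siMatrin3 libraries, against 1.22, 0.80 and 1.15 TPM in siCTRL libraries. The groups did not overlap, and the gene fell by 59.9% (log2 fold change -1.32, SE 0.209). It rested on 39 to 52 expected counts per siMatrin3 library and 90 to 152 per siCTRL library. Its level was low in both groups, with means of 0.43 ± 0.113 TPM in siMatrin3 and 1.06 ± 0.225 TPM in siCTRL cells (SD, n = 3 each). With single libraries left out the log2 fold change ran from -1.44 to -1.12. With limma it was -0.52 on log2(TPM + 1), a scale that shrinks low levels, and -1.13 on log2(TPM + 0.1), where it missed the threshold.

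CA11 (ENSG00000063180), a secreted relative without activity, had 16.7, 17.6 and 18.8 TPM in siMatrin3 libraries, against 17.3, 16.0 and 15.6 TPM in siCTRL libraries. The groups overlapped, and the direction depended on the scale. The log2 fold change was -0.04 (SE 0.062) from counts and 0.14 with an offset for transcript length, and neither passed the threshold. Its exons overlap the pseudogene SEC1P on the opposite strand, which was at 0.19 to 0.59 TPM over the 6 libraries.

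**Figure D1:**
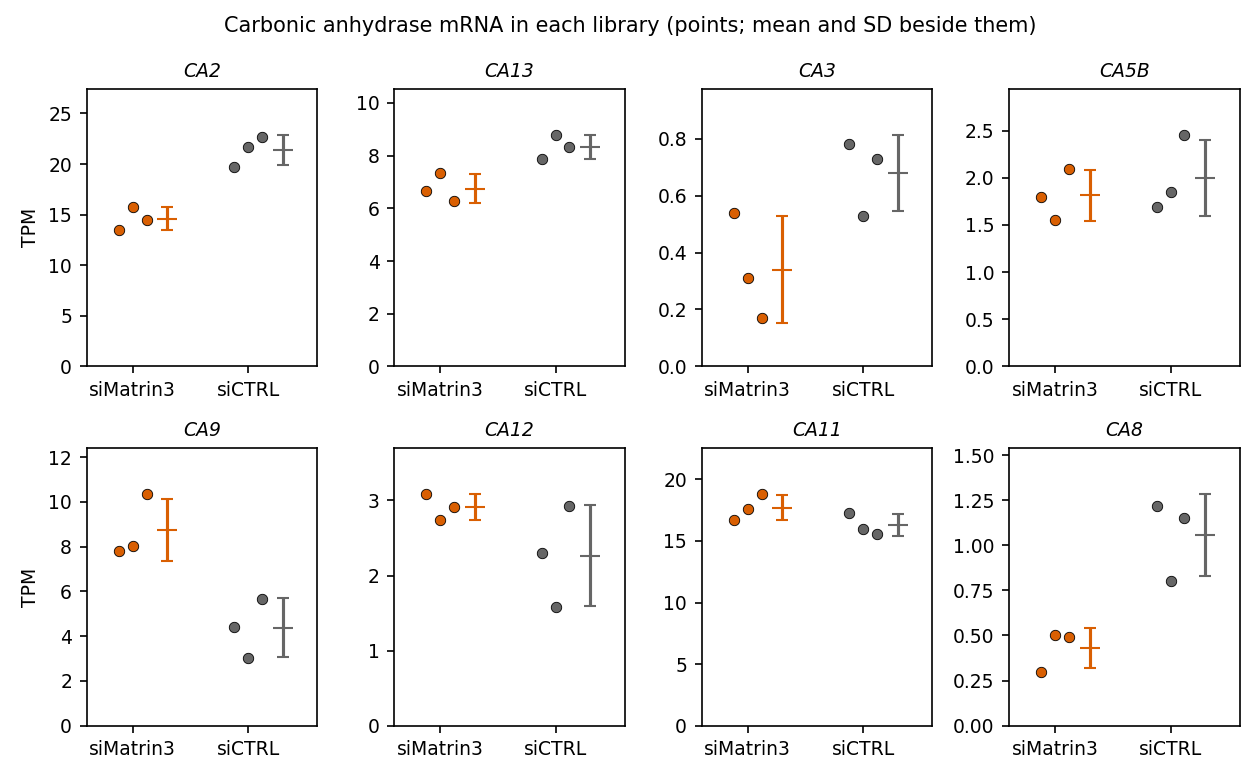
Level of each carbonic anhydrase gene in TPM (vertical axes, starting at 0) in the 3 siMatrin3 and 3 siCTRL libraries; points are libraries, and the bar beside them is the mean with its SD. CA2, CA13 and CA8 lie lower and CA9 higher in all siMatrin3 libraries than in any siCTRL library, while the points of CA3, CA5B, CA12 and CA11 overlap.

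All 8 genes had enough counts to be tested, and each passed the filter on low counts in 3 libraries of both groups. By a Benjamini-Hochberg adjusted p under 0.05 in edgeR's quasi-likelihood test, 1 of the 8 was higher (CA9) and 3 were lower (CA2, CA8 and CA13). Over the 16786 genes tested, 11.0% were called, 5.05% higher and 5.97% lower. The TPM values of the groups did not overlap for 4 of the 8 genes, against 25.1% of all genes tested. The genes were picked from this contrast, so nothing is read from these counts. The median log2 fold change of the 8 was -0.16, against -0.0011 for all genes, and the median absolute value 0.47, against 0.11.

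**Figure D2:**
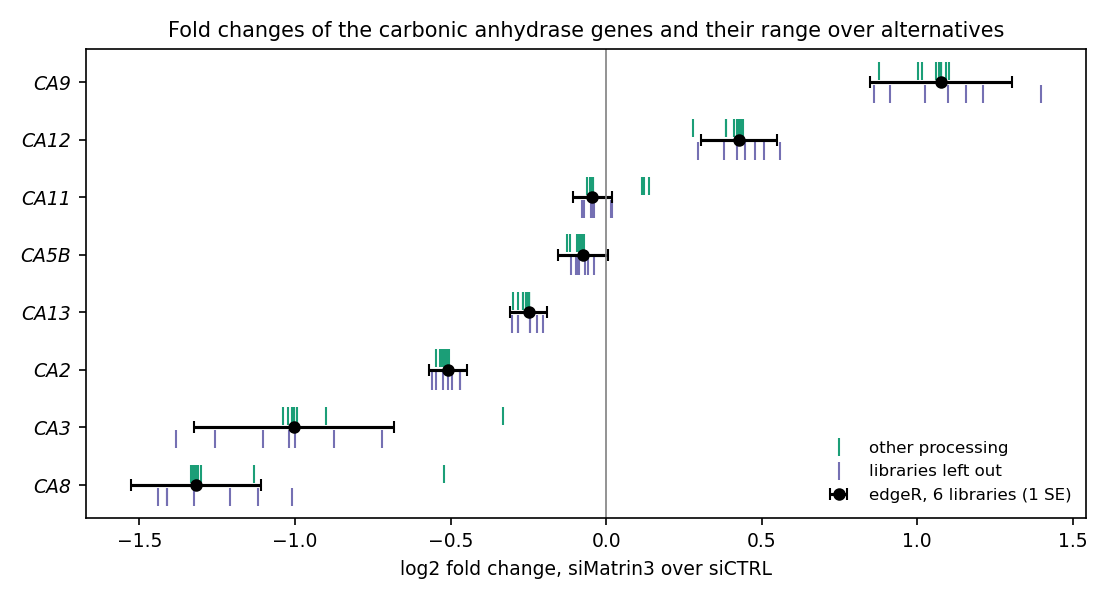
Log2 fold change of each gene, siMatrin3 over siCTRL (horizontal axis), from edgeR on 6 libraries (black point, bar 1 SE) with the values under other processing (green ticks above) and with libraries left out (purple ticks below). CA9 and CA12 stayed above 0 and CA2, CA3, CA8, CA13 and CA5B below it throughout, while the ticks of CA11 fall on both sides of 0.

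The order of the levels differed between the groups. In siMatrin3 cells it ran CA11, CA2, CA9, CA13, CA12, CA5B, CA8 and CA3 by mean TPM, from 17.7 down to 0.34 TPM. In siCTRL cells it ran CA2, CA11, CA13, CA9, CA12, CA5B, CA8 and CA3, from 21.4 down to 0.68 TPM. Neighbours in these orders did not overlap over their libraries, except CA8 and CA3 in siMatrin3 cells and CA12 and CA5B in siCTRL cells. CA2 and CA11 thus stood in opposite order in the groups, as did CA9 and CA13.

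Ratios between the genes were taken within each library. Those that hold CA9 or CA2 follow from the choice of the genes and are given as a description. The ratio of CA9 to CA2 in TPM was 0.579, 0.510 and 0.712 in siMatrin3 libraries, against 0.225, 0.140 and 0.250 in siCTRL libraries, so CA9 stayed below CA2 in all 6. That of CA9 to CA13 was 1.17, 1.10 and 1.65 in siMatrin3 libraries, against 0.563, 0.345 and 0.679 in siCTRL libraries, so CA9 was above CA13 in 3 of 3 siMatrin3 libraries and 0 of 3 siCTRL libraries. CA2 stood below CA11 in 3 of 3 siMatrin3 libraries, with ratios of 0.808, 0.896 and 0.773, and above it in 3 of 3 siCTRL libraries, with 1.14, 1.36 and 1.45. The ratio of the surface enzymes CA9 and CA12 was 2.54, 2.94 and 3.55 in siMatrin3 libraries, against 1.93, 1.92 and 1.94 in siCTRL libraries. In the siCTRL libraries this last ratio was nearly constant in TPM. Both genes varied between these replicates, with coefficients of variation of 30.1% for CA9 and 29.6% for CA12. The constancy did not hold in CPM, where CA9 was at 3.90, 2.73 and 5.83 and CA12 at 8.52, 5.79 and 7.50. In siCTRL replicate 3 the estimated transcript length of CA12, described below, was also low, at 3325 bases.

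Summed over the 8 genes, the level was 50.4, 53.9 and 55.5 TPM in siMatrin3 libraries and 55.3, 54.2 and 59.5 TPM in siCTRL libraries, ranges that overlap. The cytosolic enzymes CA2, CA3 and CA13 made up 41.1, 43.5 and 37.7% of this sum in siMatrin3 libraries, against 51.3, 57.1 and 53.3% in siCTRL libraries. The surface enzymes CA9 and CA12 made up 21.6, 20.02 and 23.8% in siMatrin3 libraries, against 12.2, 8.50 and 14.4% in siCTRL libraries. These shares are made up mostly of CA2 and CA9, so their separation follows from how the genes were picked. Mitochondrial CA5B held 2.88 to 3.76% in siMatrin3 and 3.06 to 4.12% in siCTRL libraries, and the proteins without activity 33.6 to 34.7% and 28.1 to 33.4%, nearly all of it CA11, ranges that also did not overlap although CA11 did not pass the threshold.

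**Figure D3:**
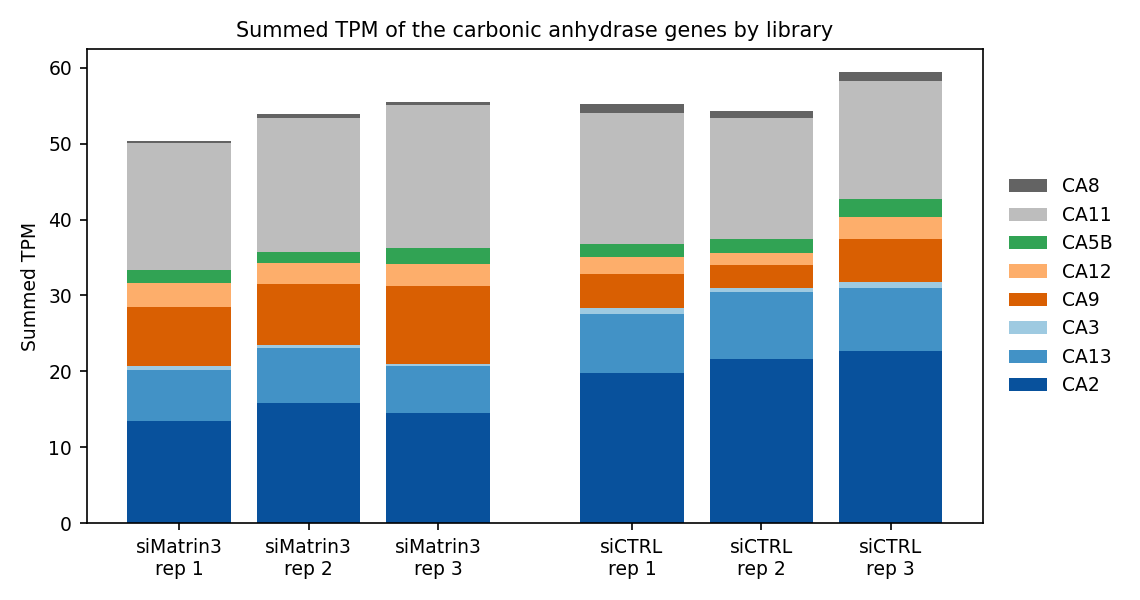
TPM of the 8 genes stacked for each library (vertical axis, summed TPM from 0), with the siMatrin3 libraries on the left and the siCTRL libraries on the right; blue marks cytosolic, orange surface, green mitochondrial and grey inactive members. The totals lie between 50.4 and 59.5 TPM, with a smaller blue and a larger orange part in each siMatrin3 library.

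The rest of the family was near or at 0 in these cells. Of 15 carbonic anhydrase genes in all, 7 lie outside the 8 described, and CA4, CA6 and CA10 were listed at 0 in every library. CA1, CA5A and CA7 stayed at or below 0.17 TPM. CA14, a surface enzyme, was the highest of the 7 and the one with enough counts to be tested, with 0.18, 0.30 and 0.25 TPM in siMatrin3 libraries and 0.19, 0.11 and 0.38 TPM in siCTRL libraries (log2 fold change 0.09, SE 0.431, adjusted p 0.921). The summed TPM of the 15 genes was 100.5 to 100.8% of that of the 8 in siMatrin3 libraries and 100.3 to 100.8% in siCTRL libraries.

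Whether the mix of transcripts of a gene differed was asked through its abundance-weighted transcript length, the mean length of its annotated transcripts weighted by their estimated share. This measure was not used to pick the genes. It could be tested for 6 of the 8, all but CA3 and CA8, which had too few counts. In limma on log2 length, 0 of the 6 passed the threshold, where 0.00823% of 12148 genes did, and 2 of the 6 had an unadjusted p under 0.05, against 6.31% of all genes.

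CA11 had weighted lengths of 1391, 1352 and 1273 bases in siMatrin3 libraries, against 1516, 1476 and 1489 bases in siCTRL libraries. Each siMatrin3 value was shorter than each siCTRL value, with means of 1338.5 ± 60.2 bases in siMatrin3 and 1494 ± 20.3 bases in siCTRL cells (SD, n = 3 each). The log2 ratio was -0.16 (SE 0.036) with an unadjusted limma p of 0.0073 and an adjusted p of 0.584. TPM is taken per transcript length and counts are not. The mean of CA11 was higher in siMatrin3 cells by TPM (17.7 ± 1.03 against 16.3 ± 0.880 in siCTRL cells) and lower by counts. CA13 had 3625, 3611 and 3689 bases in siMatrin3 libraries, against 3574, 3547 and 3576 bases in siCTRL libraries, a log2 ratio of 0.03 (SE 0.011, unadjusted limma p 0.045, adjusted p 0.789).

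The other 4 genes overlapped between the groups. CA12 had 4229, 4213 and 4339 bases in siMatrin3 libraries, against 4698, 4722 and 3325 bases in siCTRL libraries, so siCTRL replicate 3 stood far below the other siCTRL libraries. This is the library in which CA12 was high by TPM and not by CPM. CA9 had 1285, 1471 and 1455 bases in siMatrin3 libraries, against 1267, 1294 and 1442 bases in siCTRL libraries, with a log2 ratio of 0.07 (SE 0.077, limma adjusted p 0.973). The log2 ratio was 0.02 for CA2 (SE 0.018, limma adjusted p 0.966), 0.02 for CA12 (SE 0.152) and 0.03 for CA5B (SE 0.189).

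**Figure D4:**
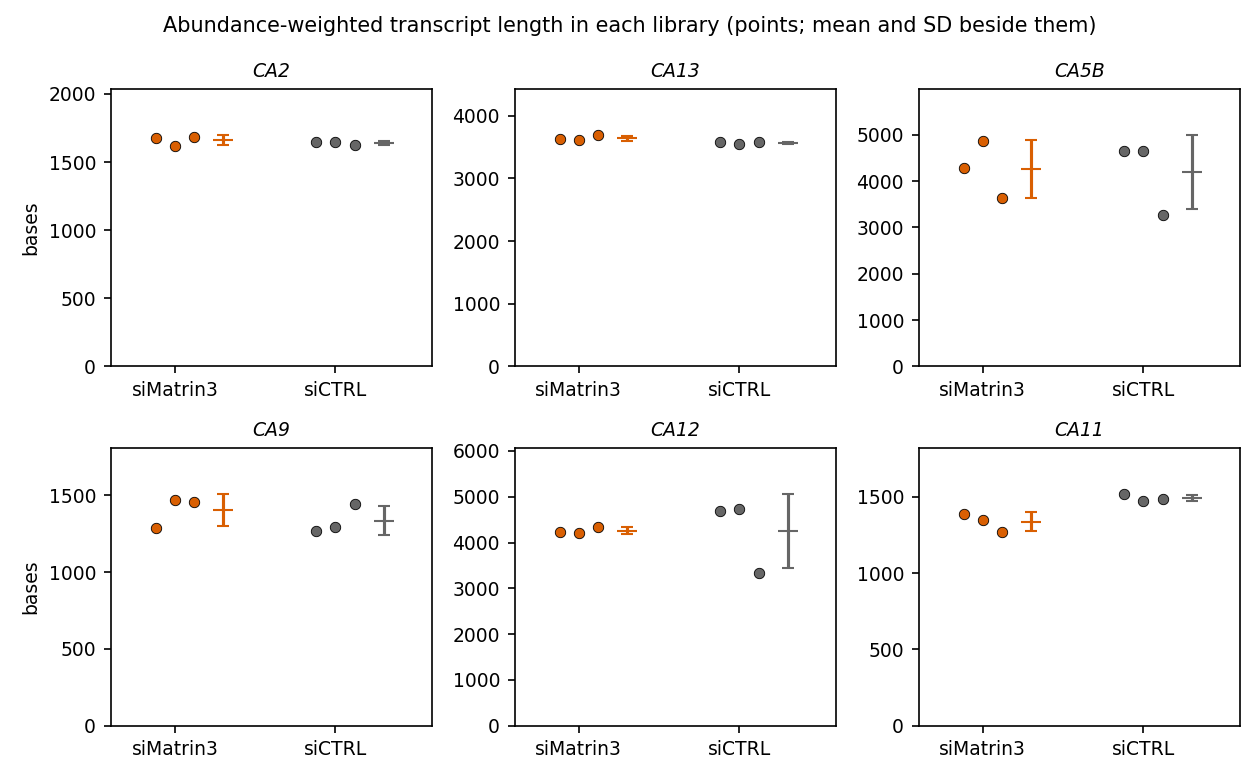
Abundance-weighted transcript length in bases (vertical axes, starting at 0) of the 6 genes with enough counts, in the 3 siMatrin3 and 3 siCTRL libraries; points are libraries, and the bar beside them is the mean with its SD. The siMatrin3 points of CA11 lie below and those of CA13 slightly above the siCTRL points, and CA12 has a single low siCTRL library.

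Genes that work beside the carbonic anhydrases were taken as lists and read from the same edgeR fit, in which 11.0% of all genes were called and the median log2 fold change was -0.0011. An unadjusted p under 0.05 was reached by 26.0% of all genes in edgeR, and DESeq2 called 11.7% of those it tested. Over all lists 15 genes passed the threshold, and ATP6V1A and CPS1 were the ones that still did with an offset for transcript length. Bicarbonate transporters carry the product of the enzymes across membranes. They were listed as members of the SLC4 and SLC26 families, not all of which carry bicarbonate. Of 13 tested 2 were higher and 3 lower, with a median log2 fold change of -0.07. In this list 6 had an unadjusted p under 0.05 and DESeq2 called 5. SLC4A11, a member of the SLC4 family that is not known to carry bicarbonate, rose (log2 fold change 0.32, SE 0.072, adjusted p 0.0190). It had 11.7, 11.6 and 14.6 TPM in siMatrin3 libraries, against 9.05, 11.0 and 9.74 TPM in siCTRL libraries. Its call was lost without siMatrin3 replicate 3 (0.24), siCTRL replicate 1 (0.27) or siCTRL replicate 3 (0.35). SLC4A7, a sodium-bicarbonate cotransporter, rose by less (0.26, SE 0.070, adjusted p 0.0370), and its call was lost without 4 of the 6 libraries in turn (siMatrin3 replicates 1 and 3, siCTRL replicates 2 and 3), with values of 0.19 to 0.34 over the 6. SLC26A4, the anion exchanger pendrin, fell from a low level, with 0.16, 0.20 and 0.47 TPM in siMatrin3 and 0.32, 0.68 and 0.52 TPM in siCTRL libraries (-1.32, SE 0.212, adjusted p 0.00451). The cotransporters SLC4A5 (-0.54, SE 0.102, adjusted p 0.00954) and SLC4A4 (-1.25, SE 0.300, adjusted p 0.0250) fell too, SLC4A4 at no more than 0.22 TPM in any library. The TPM values of SLC4A7, SLC26A4 and SLC4A5 overlapped between the groups. SLC4A4 is named although the naming rule does not reach it, and its call was lost without 4 of the 6 libraries (siMatrin3 replicates 1 and 2, siCTRL replicates 1 and 3), with values of -1.46 to -1.002 over the 6.

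Among 13 sodium-proton exchangers and partners tested, which extrude the protons that carbonic anhydrases release, 0 were higher and 3 lower, with a median of 0.01, while 3 had an unadjusted p under 0.05 and DESeq2 called 2. SLC9A2 fell by 0.47 (SE 0.109, adjusted p 0.0212) and the endosomal SLC9A9 by 0.99 (SE 0.234, adjusted p 0.0240) on the log2 scale, both at no more than 1.21 TPM in any library. The TPM values of SLC9A9 overlapped between the groups, and its log2 fold change was -0.51 with an offset for transcript length and missed the threshold (adjusted p 0.436). DESeq2 did not call SLC9A2 (adjusted p 0.0528). Their calls were lost without siMatrin3 replicate 2, siMatrin3 replicate 3 or siCTRL replicate 3, and that of SLC9A2 also without siCTRL replicate 1, with values of -0.51 to -0.44 for SLC9A2 and -1.18 to -0.80 for SLC9A9.

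Of 9 monocarboxylate transporters and chaperones, which export lactate together with protons, 0 passed in edgeR and 0 in DESeq2, and 2 had an unadjusted p under 0.05. Their median was 0.04, and SLC16A3, the lactate exporter of glycolytic cells, was at 201 TPM in siMatrin3 and 213 TPM in siCTRL cells (-0.06, SE 0.046). Of 22 subunits of the V-ATPase and other proton pumps, ATP6V1A, the catalytic subunit A, fell (-0.15, SE 0.044, adjusted p 0.0496) and 0 rose, while 6 had an unadjusted p under 0.05 and DESeq2 called 1. The ATP6V1A call was lost without any of the 6 libraries in turn, with values of -0.17 to -0.13. Per length the difference was larger, with 21.8, 24.5 and 22.9 TPM in siMatrin3 libraries, against 32.8, 27.3 and 28.8 TPM in siCTRL libraries, and a log2 fold change of -0.34 with the length offset.

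Of 8 enzymes that use bicarbonate as a substrate, CAD, which starts pyrimidine synthesis, rose to 66.4, 67.1 and 73.8 TPM in siMatrin3 libraries, against 56.2, 64.4 and 60.3 TPM in siCTRL libraries (0.20, SE 0.039, adjusted p 0.0114). Its call was lost without siMatrin3 replicate 3 (0.18). CPS1, the mitochondrial synthetase that makes carbamoyl phosphate from ammonia, fell to 14.1, 14.0 and 13.6 TPM in siMatrin3 libraries, against 18.4, 17.5 and 18.7 TPM in siCTRL libraries (-0.41, SE 0.046, adjusted p 0.000822). CPS1 was the list gene whose call held under each of the 17 alternatives. The median of the 8 was -0.14, while 5 had an unadjusted p under 0.05 in edgeR and DESeq2 called 2. ACACA, also listed, was not found by name.

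The IP3 receptors, of which ITPR1 is the known partner of CA8, numbered 3. ITPR2 fell (0.99 TPM in siMatrin3 and 1.38 TPM in siCTRL cells, log2 fold change -0.30, SE 0.084, adjusted p 0.0448), a call lost without any of the 6 libraries in turn, with values of -0.34 to -0.23, and in DESeq2 (adjusted p 0.0682). ITPR1 itself was at -0.15 (SE 0.059, adjusted p 0.136) and ITPR3, the most abundant, at 0.12 (SE 0.041, adjusted p 0.0909), and neither passed in edgeR. In DESeq2 ITPR3 passed (adjusted p 0.0400), so the single call in this list was in the higher direction there. An unadjusted p under 0.05 was found for 3 of the 3.

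CA9 is read in many tumours as a marker of hypoxia, so 30 further genes induced by hypoxia were examined. Of these 0 were higher and 1 lower, with a median of 0.04, and 6 had an unadjusted p under 0.05. Among these 6, MXI1 had a negative log2 fold change. Those of ANGPTL4, PFKFB4, PDK1, HK2 (0.21, SE 0.0815) and EGLN1 (0.14, SE 0.0561) were positive and missed the threshold. HK2 and EGLN1 were named after their values were seen. The gene that fell was MXI1, a partner of MAX that opposes MYC, with 48.1 TPM in siMatrin3 and 54.6 TPM in siCTRL cells (-0.16, SE 0.046, adjusted p 0.0491), and its call was lost without each library in turn except siCTRL replicate 2, with values of -0.20 to -0.13. ANGPTL4, a secreted lipase inhibitor, was at 0.37 (SE 0.106, adjusted p 0.0519), PFKFB4, a regulator of glycolysis, at 0.28 (SE 0.088, adjusted p 0.0640) and PDK1, the kinase that restrains pyruvate dehydrogenase, at 0.22 (SE 0.070, adjusted p 0.0707), and the 3 were named after their values were seen. The growth factor VEGFA was at 0.01 (SE 0.073), NDRG1 at -0.11 (SE 0.163) and lactate dehydrogenase LDHA at -0.0025 (SE 0.088), also named after their values were seen. The count of higher genes depended on the processing: DESeq2 called 3 higher and 1 lower, and edgeR without a filter on low counts 5 higher and 2 lower. Without siCTRL replicate 2, in which most of these genes were lowest among the siCTRL libraries, 0 were higher and 3 lower, and without siCTRL replicate 3 the counts were 1 and 0.

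Of 13 oxygen-sensing regulators 0 were higher and 1 lower, with a median of -0.04, while 4 had an unadjusted p under 0.05 and DESeq2 called 2. ARNT, the constant partner of the hypoxia-inducible factors, fell (15.3 TPM in siMatrin3 and 17.3 TPM in siCTRL cells, log2 fold change -0.19, SE 0.039, adjusted p 0.0138), a call lost without siMatrin3 replicate 3 (-0.18) or siCTRL replicate 3 (-0.17). HIF1A, which encodes the inducible subunit, was at 69.7 TPM in siMatrin3 and 66.2 TPM in siCTRL cells (0.09, SE 0.056, adjusted p 0.334).

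CA2 marks differentiated colonocytes, and most of the other genes known from that state had too few counts to be tested. Of 20 listed, 5 were tested, and 0 were higher and 1 lower, with a median log2 fold change of 0.04. In this list 2 had an unadjusted p under 0.05 in edgeR and DESeq2 called 1. KRT18, a keratin of simple epithelia, fell (-0.15, SE 0.038, adjusted p 0.0330), with 897 TPM in siMatrin3 and 1007 TPM in siCTRL cells, and its call was lost without each library in turn except siCTRL replicate 1, with values of -0.17 to -0.12. KRT20, the keratin of mature colonocytes, was at 0.90 TPM in siMatrin3 and 0.79 TPM in siCTRL cells (0.34, SE 0.204, adjusted p 0.337). CDX2, the intestinal transcription factor, was at 8.36 TPM in siMatrin3 and 8.09 TPM in siCTRL cells (0.04, SE 0.051, adjusted p 0.637).

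The genes whose pattern over the 6 libraries was most like that of CA9, by Pearson correlation of log2 CPM among 11864 other genes, were DLAT, a subunit of pyruvate dehydrogenase (0.993), the MAX partner MNT (0.993) and the cytokine gene TNFSF9 (0.988). Their own differences were small, with log2 fold changes of 0.14, 0.15 and 0.16. For CA2 they were UMAD1 (0.992), the lipid phosphatase gene SGPP2 (0.992) and TMEM98 (0.991), with log2 fold changes of -0.35, -0.46 and -0.41. Within the family, CA8 (0.928) and CA13 (0.925) ran most like CA2, CA12 (0.827) ran most like CA9, and CA5B ran against CA9 (-0.933). All these values rest on the same 6 libraries in 2 groups and are descriptions.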

How the data were processed

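The 3 siMatrin3 and 3 siCTRL poly(A) libraries were grouped by their labels. They were made with a stranded kit and read in pairs. Tools named in the submitters' processing notes are cutadapt, STAR 2.5.1 and RSEM, with the hg19 build, while the study's methods name a different STAR version. The authors deposited expected counts, estimated by RSEM so that a read fitting several transcripts or genes is divided among them. The deposited TPM values were brought by the authors to an equal total for each library. Reads that a gene shares with a near copy or an overlapping gene were therefore assigned by estimate. Each gene also has a deposited length and effective length, averaged by the authors over its transcripts by estimated abundance. Deposited FPKM values were not used.

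The members and gene lists were chosen with earlier results of these data known. Of 56632 genes 88.3% had a symbol in the name table. Overlapping genes were taken from GENCODE on GRCh38, another build than that of the tables. After rounding, filterByExpr and TMM scaling, expected counts of 16786 genes entered the two-sided quasi-likelihood test of edgeR 4.0.16 (R 4.3.3), without covariates, at a Benjamini-Hochberg adjusted p under 0.05. CPM used these TMM library sizes, and log2 CPM a prior count of 2. Weighted length was tested with limma 3.58.1, on the log2 scale, for genes of 2 or more transcripts that had at least 50 expected counts in every library. Named genes were the family, MATR3, up to 2 genes higher and 2 lower per list with the smallest p among those past the threshold whose CPM did not overlap between the groups, and the 3 genes most like CA9 and CA2. Other genes are said to be named after their values were seen, and ITPR1, ITPR3, HIF1A, SLC16A3, KRT20, CDX2 and the neighbouring and overlapping genes were named for their role. A gene that a list count includes is not reported here by name. P-values rest on the spread among libraries of the same group.

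The alternatives changed the scaling (RLE, upper quartile), the filter (none, or 1 CPM in 3 libraries) and the threshold (adjusted p under 0.01). They also changed the test (DESeq2 1.42.0, a tool the study used in another version, or limma on log2(TPM + 1) or log2(TPM + 0.1)). Others added an offset for transcript length, taken from the deposited effective length, or the replicate number as a block, or omitted single libraries. For length, minimums of 20 and 100 counts, the block, single libraries omitted and effective length were tried. Leaving out replicate 1 of both groups, and for length a fit without a variance trend or genes of constant length, were chosen after seeing the data. The fits were tested on simulated data.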

Additional observations from a re-analysis of the deposited data

How the results depend on the processing

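CA2 was at -0.56 to -0.47, CA5B at -0.12 to -0.04 and CA8 at -1.44 to -0.52 over the 17 alternatives, and since CA2 was picked for its fall, its calls are no sign of stability. The count of called carbonic anhydrases was 4 as reported, 6 without a filter, 5 in DESeq2, 3 with a length offset, 2 with limma on log2(TPM + 1), 1 on log2(TPM + 0.1), 2 at an adjusted p under 0.01, and 2 to 5 with a library left out. The count higher was 1 as reported, 2 without a filter, in DESeq2 and without replicate 1 of both groups, 0 in both limma fits and at an adjusted p under 0.01, and 0 to 2 with a library left out. The count lower was 3 as reported, 4 without a filter, 2 with a length offset, 1 with limma on log2(TPM + 0.1), and 2 to 3 with a library left out. CA9 was at 0.86 to 1.40, CA13 at -0.30 to -0.20 and CA12 at 0.28 to 0.56 over the alternatives. Over all genes 1849 were called, 2595 without a filter, 1780 in DESeq2, 706 with a length offset, 437 with limma on log2(TPM + 1), 429 on log2(TPM + 0.1), 561 at an adjusted p under 0.01, 1216 without replicate 1 of both groups, and 759 to 1599 with a library left out, the lowest without siMatrin3 replicate 3. CA11 changed sign with a length offset (0.14), with limma on log2(TPM + 1) (0.11) and log2(TPM + 0.1) (0.12) and without replicate 1 of both groups (0.0147), and ran from -0.076 to 0.0174 with a library left out. Of the 15 list genes past the threshold, 14 lost their call with limma on log2(TPM + 1) and 12 without at least 1 single library. For these changes the cause was not tested.

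The length test called 1 gene, 2 with a minimum of 20 counts, and 0 to 4 with a library left out. With a library left out, the length ratio of CA5B ran from -0.14 to 0.14 and that of CA12 from -0.15 to 0.11. The replicate numbers are shared by the groups, and deviations of same-numbered libraries correlated by 0.177, 0.0896 and 0.0001. Of the 6 libraries, 4 correlated best with the library of their own number in the other group. These values do not settle whether the numbers pair the libraries, and the main fit did not use the numbers. With the number as a block, 2716 genes were called, 2 carbonic anhydrases higher and 4 lower (CA3 -1.04 and CA12 0.44 gained a call), 4 hypoxia-induced genes higher and 1 lower, and 0 genes in the length test. Depth limits CA3 and CA8, which had 172 and 505 expected counts over the 6 libraries. CA3 and SLC4A4 have no value under the filter of 1 CPM, which they do not pass.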
